A study of Mus musculus with 18 samples.

Results

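The genes that encode the INK4 inhibitors of cyclin D kinases, the ARF protein and p27KIP1 were followed through RNA-seq of mouse embryonic fibroblasts (MEFs) that carried or lacked Pole4 and Trp53. They were the 5 genes Cdkn2a, Cdkn2b, Cdkn2c, Cdkn2d and Cdkn1b, chosen by symbol from a table of 51912 genes, and all 5 were present and passed the filter on low counts that left 15710 genes for testing. Primary MEFs at passage 1, prepared from single embryos at embryonic day 13.5 on a C57BL/6 background and kept at 5% oxygen in 15% serum, came from crosses of Pole4+/- Trp53+/- parents. The 6 genotypes, with 3 libraries each, combined Pole4+/+ or Pole4-/- with Trp53+/+, Trp53+/- or Trp53-/-. The null alleles were Pole4 tm1(KOMP)Vlcg and Trp53 tm1Brd, both constitutive, and the labels name no treatment. Pole4 encodes a small accessory subunit of DNA polymerase epsilon, and Trp53 encodes the p53 tumour suppressor. The labels do not say that the 3 libraries of a genotype came from different embryos, so p-values measure the spread between these libraries. The question addressed was how the Ink4/Arf transcripts and p27 respond when Trp53 is lost.

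INK4 proteins bind CDK4 and CDK6 and keep them from pairing with D-type cyclins, which leaves the retinoblastoma protein in its E2F-binding form and holds cells in G1. ARF is read from the same gene as p16INK4A but in another reading frame, and it binds MDM2, the ubiquitin ligase that removes p53, so that ARF stands upstream of p53. p27KIP1 belongs to the CIP/KIP family together with p21 (Cdkn1a, the classical p53 target) and p57 (Cdkn1c), and it inhibits cyclin E-CDK2. In cultured fibroblasts the Ink4/Arf locus is known for silencing by Polycomb proteins in the embryo and for induction during prolonged culture.

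Cdkn2a (ENSMUSG00000044303) lies at chr4:89274471-89294653 on the minus strand of GRCm38 and gives 2 annotated transcripts. The p16Ink4a transcript, Cdkn2a-201, starts with an exon at chr4:89281986-89282192, and the Arf transcript, Cdkn2a-202, starts upstream with an exon at chr4:89294334-89294653. Both join to the same second exon at chr4:89276645-89276985. The 15 bases on each side of the first junction are printed here because they are where the 2 messages part (GENCODE transcripts of GRCm38; the capitals mark the shared second exon).
p16Ink4a (Cdkn2a-201): cgtaccccgattcagGTGATGATGATGGGC
Arf (Cdkn2a-202): ggaatcctggaccagGTGATGATGATGGGC
The deposited values are per gene, so every Cdkn2a value below is the sum of both transcripts, and no test here separates p16Ink4a from Arf. The first exon makes up 24.3% of the p16Ink4a transcript and 35.8% of the Arf transcript, and the remainder is nearly all shared sequence. Cdkn2b, which encodes p15INK4B, is the next gene upstream on the same strand (chr4:89306299-89311039). Cdkn2c (p18INK4C) is on the same chromosome but far away (chr4:109660876-109667189, minus strand), Cdkn2d (p19INK4D) is at chr9:21288410-21291407 on the minus strand, and Cdkn1b is at chr6:134920401-134925513 on the plus strand. None of the 5 overlaps another annotated gene, which matters because the library kit did not keep the strand.

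**Figure D1:**
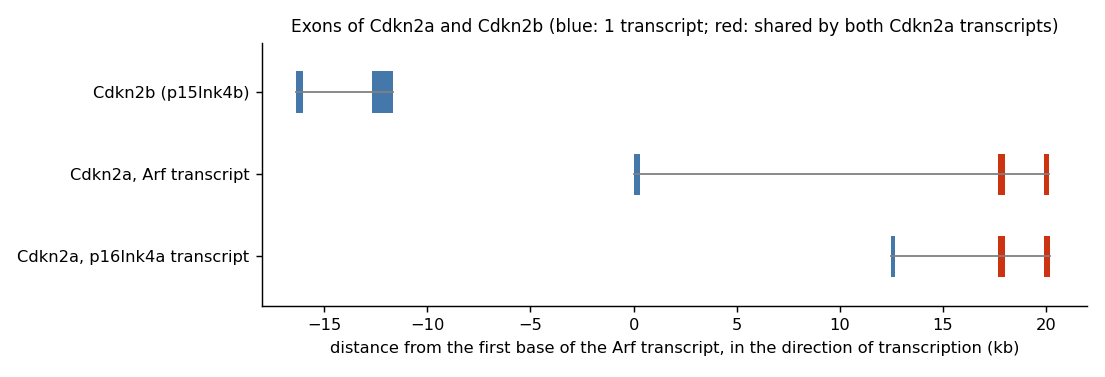
Exons of Cdkn2b and of the 2 Cdkn2a transcripts, by distance in kb from the first base of the Arf transcript in the direction of transcription. Blue exons belong to 1 transcript and red exons begin at the same base in both Cdkn2a transcripts, so reads from the red exons count for p16Ink4a and Arf alike, except at the end of the last one, which runs on in the p16Ink4a transcript only.

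RefSeq start-site windows (250 bases before to 50 after the start, GRCm38.p6) were found for all 5 genes, with 2 windows each for Cdkn2a and Cdkn2c. They were searched on both strands for 4 E2F words (TTTCCCGC, TTTGGCGC, TTTCGCGC and TTTGCCGC) and for the cell cycle homology region (CHR) word TTTGAA. E2F factors drive S-phase genes, and the CHR element is bound by the MuvB complexes that repress cell cycle genes downstream of p53 and p21. Among the 7 windows, an E2F word was found only in that of Arf, where TTTCCCGC begins 99 bases before the start, and the CHR word only in that of Cdkn2b, where it lies on the opposite strand and begins 161 bases before the start. For comparison, 2.26% of 32851 mouse windows hold an E2F word and 17.9% hold the CHR word. Those 2 windows are shown because they hold the matches, in capitals, and that of Cdkn2d is shown because this gene passed the test of Trp53 loss in both Pole4 backgrounds; each runs 5′ to 3′ on the minus strand.
Arf, chr4:89294570-89294869: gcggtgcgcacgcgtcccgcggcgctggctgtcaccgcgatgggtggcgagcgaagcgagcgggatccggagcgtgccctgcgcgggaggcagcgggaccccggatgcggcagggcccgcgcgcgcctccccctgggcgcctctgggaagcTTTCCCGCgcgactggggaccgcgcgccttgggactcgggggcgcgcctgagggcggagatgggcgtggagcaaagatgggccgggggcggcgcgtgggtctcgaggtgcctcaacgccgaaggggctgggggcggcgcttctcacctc
Cdkn2b, chr4:89310983-89311282: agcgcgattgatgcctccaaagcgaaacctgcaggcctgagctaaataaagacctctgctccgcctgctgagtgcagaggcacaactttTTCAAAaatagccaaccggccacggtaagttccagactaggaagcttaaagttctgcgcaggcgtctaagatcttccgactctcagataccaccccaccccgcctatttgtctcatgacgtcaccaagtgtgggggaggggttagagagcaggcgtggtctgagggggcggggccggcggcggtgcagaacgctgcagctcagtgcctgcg
Cdkn2d, chr9:21291160-21291459: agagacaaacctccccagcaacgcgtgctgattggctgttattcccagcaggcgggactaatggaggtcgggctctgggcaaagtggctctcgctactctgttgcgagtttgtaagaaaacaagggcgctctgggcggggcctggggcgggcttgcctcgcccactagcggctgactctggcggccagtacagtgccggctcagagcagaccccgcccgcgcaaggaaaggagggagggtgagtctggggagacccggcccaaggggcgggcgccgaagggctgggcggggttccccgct
The Arf window held 45 CpG dinucleotides and 77.0% GC, against 12 and 60.3% in the p16Ink4a window and a median of 7.0 and 52.7% over all windows. The Cdkn2d window held 22 CpG and the Cdkn2b window 18. A match is a run of letters and no evidence of binding.

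The labels were checked against the genes they name. Trp53 ran from 8.65 to 12.1 CPM (counts as a rate of the library's size, which was scaled by edgeR's TMM method) in the 6 Trp53-/- libraries, from 48.4 to 59.6 in the 6 Trp53+/- libraries and from 64.2 to 96.0 in the 6 Trp53+/+ libraries. Pole4 ran from 9.26 to 12.0 CPM in the 9 Pole4-/- libraries and from 14.2 to 26.4 in the 9 Pole4+/+ libraries. The 14.2 belonged to replicate 1 of Pole4+/+ Trp53-/-, at 0.549 times the mean of the other 2 of its genotype, and the other 8 ran from 16.3 to 26.4. Libraries held 9535971 to 35319918 counts, and ribosomal RNA genes took 0.968% to 42.5% of them. Of the fibroblast genes, Col1a1 (3890 to 9441 CPM), Fn1 (3105 to 10600) and Vim (2111 to 3025) were high in every library. Pdgfra (14.0 to 253.7 CPM), Dcn (1.45 to 35.0, median 6.27) and Lum (1.09 to 41.7, median 4.65) were far lower. Cldn5 (endothelium) had no count in any library, and Epcam (epithelium) and Pecam1 (endothelium) stayed at 0.24 and 0.57 CPM or less. Other genes of those lists were higher, with Krt18 at up to 15.0 CPM, Krt8 at up to 4.44, Kdr at up to 4.70 and Egfl7 at up to 3.19. The sum of 10 macrophage markers was 5.62, 58.64 and 49.15 CPM in Pole4+/+ Trp53+/+ and 7.72, 25.24 and 28.68 in Pole4+/+ Trp53-/- libraries. It was 10.48, 10.93 and 24.61 CPM in Pole4-/- Trp53+/+ and 35.72, 7.22 and 25.71 in Pole4-/- Trp53-/- libraries. Of these markers, Lyz2 reached 28.2 CPM and Csf1r 8.89. Their part in the changes of the 5 genes was not tested. That replicate 1 library of Pole4+/+ Trp53-/- stood apart from the other 2 of its genotype. In it 1897 of 15659 named genes tested were at least 1 log2 unit above the mean of the other 2, where the other 17 libraries had 226 to 856 such genes in the same comparison. Genes at least 1 log2 unit below did not set it apart: it had 1013, and replicates 2 and 3 of its genotype had 1077 and 1129. Results on the 5 genes that rest on the replicate 1 library are therefore given with and without it.

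With Trp53 lost, Cdkn2d rose in both Pole4 backgrounds, Cdkn2c rose and Cdkn2b fell in Pole4-/- cells, and Cdkn1b passed no test. Of the 5 genes, 3 were called in Pole4-/- cells (2 higher, 1 lower), where 42.6% of all genes tested were called, and 1 was called in Pole4+/+ cells (higher), where 4.60% were. A call is a Benjamini-Hochberg adjusted p under 0.05 over all 15710 genes in edgeR's quasi-likelihood test. Averaged over both backgrounds, 3 of the 5 were called, all higher, against 37.4% of all genes. They were Cdkn2a, Cdkn2c and Cdkn2d. Without Pole4+/+ Trp53-/- replicate 1, Cdkn2a was not called by edgeR (0.40, adjusted p = 0.101). Cdkn2b was then called lower (-0.44, adjusted p = 0.00656), and Cdkn2c and Cdkn2d were still called higher. The median log2 fold change of the 5 was 0.45 in Pole4-/- and 0.31 in Pole4+/+ cells, beside -0.02 and 0.03 over all genes. Between backgrounds the change differed for none of the 5 at an adjusted p under 0.05, against 0.331% of all genes, and for 1 at an unadjusted edgeR p under 0.05. With 5 genes, 3 called is little beyond the share of all genes in Pole4-/- cells, and with library totals in place of TMM factors 0 of the 5 were called in either background, where 23.7% and 1.22% of all genes were. The changes of the genes that lost their call were then -0.70 (Cdkn2b), 0.66 (Cdkn2c) and 0.47 (Cdkn2d) in Pole4-/- and 0.62 (Cdkn2d) in Pole4+/+ cells. Ribosomal RNA took 7.11% to 42.5% of counts in Pole4-/- Trp53+/+ and 24.7% to 30% in Pole4-/- Trp53-/- libraries. In bulk RNA, fewer cells that express a gene and less RNA per cell cannot be told apart.

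Other measures moved with the Trp53 genotype. The summed level of 15 proliferation genes was 798.6 to 824.4 CPM in Pole4-/- Trp53+/+ and 2402 to 2915 in Pole4-/- Trp53-/- libraries, and 1186 to 1625 and 1449 to 2725 in the Pole4+/+ pair. The sum of 8 skeletal muscle markers, mostly Acta1 and Des, was 142.1 to 151.6 CPM and 59.4 to 76.3 in the Pole4-/- pair, and 117.0 to 153.4 and 44.8 to 54.1 in the Pole4+/+ pair. Of the other genes on that list, Pax7 was at 0.84 to 6.98 CPM, Myh3 at up to 5.05, and Myod1, Myog, Myf5 and Tnnt1 at up to 1.45 or less. The sum of the fibroblast markers was 24880 to 30940 CPM and 13710 to 16510 in the Pole4-/- pair, without overlap, and 16320 to 21990 and 15830 to 21260 in the Pole4+/+ pair. The sum of 8 epithelial markers, mostly Krt18 and Krt8, was 2.13 to 2.84 CPM and 4.50 to 20.6 in the Pole4-/- pair, and 2.93 to 7.65 and 2.98 to 15.8 in the Pole4+/+ pair. The sum of 8 neuronal and glial markers, mostly Tubb3 and Map2, was 56.4 to 63.5 CPM and 65.1 to 87.8 in the Pole4-/- pair, and 50.6 to 59.1 and 67.5 to 88.3 in the Pole4+/+ pair. Their part in the changes of the 5 genes was not tested.

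**Figure D2:**
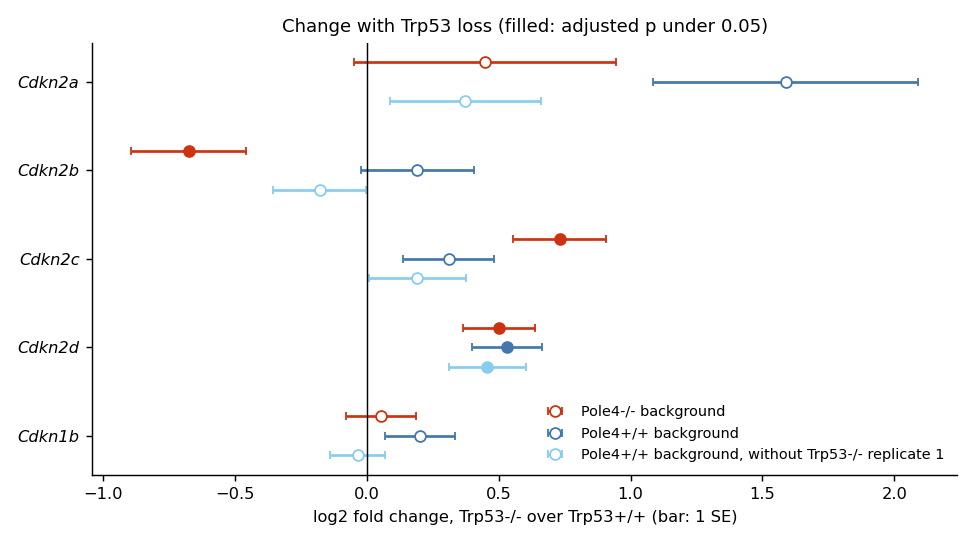
Log2 fold change of Trp53-/- over Trp53+/+ for each gene, with bars of 1 SE from edgeR, in Pole4-/- (red), Pole4+/+ (dark blue) and Pole4+/+ MEFs without the Trp53-/- replicate 1 library (light blue). Filled points have an adjusted p under 0.05: Cdkn2b, Cdkn2c and Cdkn2d in Pole4-/-, and Cdkn2d in Pole4+/+ cells; the Cdkn2a value in Pole4+/+ cells drops from 1.59 to 0.37 when that library is left out.

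Cdkn2a, the gene for p16INK4A and ARF, was at 19.7, 21.8 and 25.1 CPM in the 3 Pole4+/+ Trp53+/+ libraries. In Pole4+/+ Trp53-/- it was at 140.2, 36.8 and 21.3 CPM. Its highest level of all 18 libraries was therefore in a Trp53-null culture, but the third library of the same genotype lay within the wild-type range. The fitted log2 fold change was 1.59 (SE 0.50, adjusted p = 0.0893, edgeR), and the exact two-sided permutation p of 3 libraries against 3 was 0.3, where 0.1 is the smallest value possible. Without replicate 1 the change was 0.37 (SE 0.28, adjusted p = 0.421, edgeR), and without replicate 3, the lowest, it was 2.0 and was called, at an adjusted p of 0.0192. The 140.2 CPM were 4.82 times the mean of the other 2 libraries, and 261 of 15659 genes stood as far or farther above those libraries on the log2 scale.

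That library also held the highest Cdkn1c (p57) level of the 18, at 173.8 CPM against 50.8 and 37.2 in its genotype, and the highest Cdkn2b and Cdkn1b levels. Its summed level of 15 proliferation genes was 1449 CPM, where the other 2 libraries of the genotype had 2387 and 2725. Igfbp5, a secreted IGF-binding protein, was at 887.4 CPM in it, the highest of the 18. Of the fibroblast markers, Pdgfra (253.7 CPM, median of the 18 51.5), Dcn (35.0, median 6.27) and Lum (41.7, median 4.65) were at their highest in it, as were Igfbp3 (42.3), Map2 (25.2) and the muscle gene Myh3 (5.05). Vim was at its lowest of the 18 in it (2111, median 2645), Fn1 was below its median (4338 against 5589), and the other 5 of the 10 fibroblast markers were neither highest nor lowest. The summed fibroblast list was 21260 CPM in it, in a range of 13710 to 30940, and the summed macrophage list was 7.72 in a range of 5.62 to 58.6. Their part in the Cdkn2a value was not tested.

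In Pole4-/- cells Cdkn2a was at 40.1, 33.4 and 28.1 CPM with Trp53 intact and at 51.3, 60.2 and 27.6 CPM without it. Here 2 of the 3 null libraries were above all wild-type libraries and 1 was below them. The change was 0.45 (SE 0.50, adjusted p = 0.506, edgeR; exact permutation p = 0.4), and 0.22 to 0.72 with each library left out in turn. The mean over both backgrounds was 1.02 (SE 0.35, adjusted p = 0.0346, edgeR), which passed the threshold, but it did not without any of 8 of the 12 libraries. Those were all 3 Pole4+/+ Trp53+/+ libraries, replicates 2 and 3 of Pole4-/- Trp53+/+, replicates 1 and 2 of Pole4-/- Trp53-/- and the library that stood apart. Without the last the mean was 0.40 (SE 0.19, adjusted p = 0.101), and without the other 7 it was 0.90 to 1.06. It also missed the threshold, at 0.91, with the replicate number as a block. The exact permutation p of the mean, with labels permuted within backgrounds, was 0.08, where 0.005 is the smallest possible. The difference between the backgrounds was -1.14 (SE 0.70, adjusted p = 0.297), and 0.05 (SE 0.39) without that library.

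**Figure D3:**
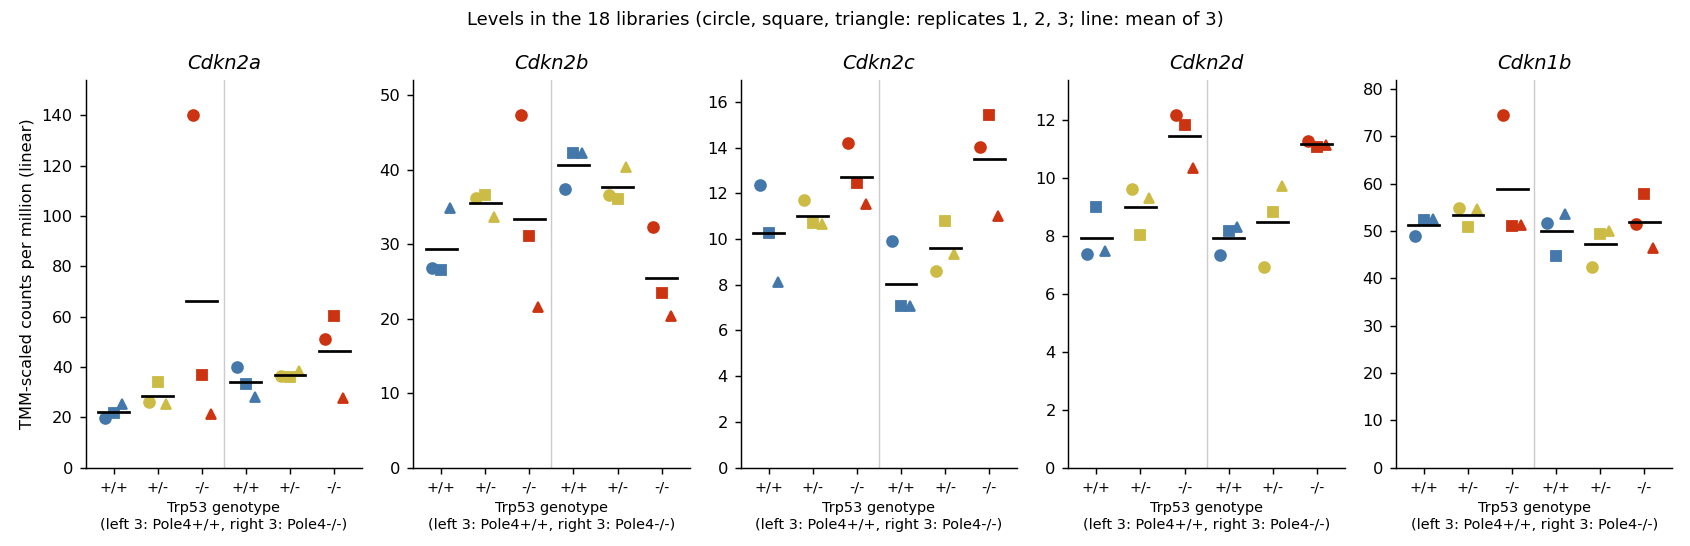
Level of each gene in the 18 libraries, in TMM-scaled CPM on linear axes from 0, by Trp53 genotype with Pole4+/+ on the left and Pole4-/- on the right of each panel; blue, yellow and red are Trp53+/+, +/- and -/-, the symbols are replicates and the lines means of 3. For Cdkn2d the 6 Trp53-/- libraries (10.3 to 12.2) lie above the other 12, and for Cdkn2a 1 library at 140.2 lies far above the rest.

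Cdkn2b, the neighbouring gene for p15INK4B, was the only one of the 5 that was called lower. In Pole4-/- cells it was at 37.4, 42.3 and 42.3 CPM with Trp53 and at 32.3, 23.4 and 20.4 CPM without it, so that the groups did not overlap, which held for 3 of the 5 genes and for 57.0% of all genes in this comparison. By edgeR the level fell by 0.67 on the log2 scale (SE 0.22, adjusted p = 0.0213), to a level 0.627 times that of Trp53+/+ cells, and the exact permutation p was 0.1, the smallest possible. Leaving out either of Trp53-/- replicates 2 and 3 or of Trp53+/+ replicates 2 and 3 ended the call, at log2 changes of -0.62, -0.54, -0.64 and -0.64.

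In Pole4+/+ cells Cdkn2b was at 26.8, 26.6 and 34.8 CPM with Trp53 and at 47.3, 31.1 and 21.6 CPM without it. The null libraries spread to both sides of the wild-type range, and the change was 0.19 (SE 0.22, adjusted p = 0.707, edgeR). Without replicate 1, the highest, it was -0.18 (SE 0.18, adjusted p = 0.549). The difference between backgrounds was -0.87 (SE 0.31) with an unadjusted edgeR p of 0.0124 and an adjusted p of 0.0952, and -0.51 (SE 0.24, adjusted p = 0.263) without that library. Without Pole4+/+ Trp53-/- replicate 3 the difference was -1.10 and was called, at an adjusted p of 0.0166. The mean over both backgrounds was -0.24 (SE 0.15, adjusted p = 0.239). Over 10 alternative fits with all libraries of the comparison it ran from -0.28 to -0.20, and 1 of them called it. Without Pole4+/+ Trp53-/- replicate 1 the mean was -0.44 (SE 0.12) and passed the test at an adjusted p of 0.00656. Cdkn2a and Cdkn2b, neighbours on the chromosome, had fitted changes of opposite sign in Pole4-/- cells, of which that of Cdkn2b was called and that of Cdkn2a was not.

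Cdkn2c encodes p18INK4C. In Pole4-/- cells it was at 9.92, 7.09 and 7.09 CPM with Trp53 and at 14.1, 15.4 and 11 CPM without it. All 3 null libraries were above all wild-type libraries, and edgeR gave a rise of 0.73 log2 units (SE 0.18, adjusted p = 0.0039), or 1.66-fold. In Pole4+/+ cells it was at 12.4, 10.3 and 8.12 CPM with Trp53 and at 14.2, 12.5 and 11.6 without it. These groups overlapped, and the change of 0.31 (SE 0.17) had an adjusted p of 0.358. It was 0.19 (SE 0.18, adjusted p = 0.538) without Trp53-/- replicate 1, and 0.16 to 0.47 with each library left out in turn. The difference between backgrounds, 0.42 (SE 0.25, adjusted p = 0.269), was not called, so the rise is not shown to be particular to Pole4-/- cells. The mean over both was 0.52 (SE 0.12, adjusted p = 0.00366, edgeR; exact permutation p = 0.01). Counts were low, from 53 to 509 per library.

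Cdkn2d encodes p19INK4D and was called in both backgrounds. It was at 7.37, 8.99 and 7.47 CPM in Pole4+/+ Trp53+/+ and at 12.2, 11.8 and 10.3 CPM in Pole4+/+ Trp53-/-. In Pole4-/- it was at 7.34, 8.17 and 8.29 CPM with Trp53 and at 11.3, 11.1 and 11.1 CPM without it. The groups did not overlap in either background, and in Pole4+/+ cells this held for 1 of the 5 genes and 16.5% of all genes. The log2 fold changes were 0.53 (SE 0.13, adjusted p = 0.0315) in Pole4+/+ and 0.50 (SE 0.14, adjusted p = 0.0080) in Pole4-/- cells, or 1.45- and 1.41-fold. They differed by -0.03 (SE 0.19, adjusted p = 0.929).

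The mean Cdkn2d change was 0.52 (SE 0.09, adjusted p = 0.000602, edgeR), and the exact permutation p was 0.005, the smallest possible. Without Pole4+/+ Trp53-/- replicate 1 the change in Pole4+/+ cells was 0.46 (SE 0.14) and was still called, at an adjusted p of 0.0407. The call in Pole4+/+ cells was lost without Trp53-/- replicate 2 or without Trp53+/+ replicate 1 or 3, at changes of 0.51, 0.48 and 0.48. The 6 Trp53-/- libraries ran from 10.3 to 12.2 CPM, above all 12 others, which ran from 6.92 to 9.72. The counts behind these levels were 62 to 437 per library.

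Cdkn1b, the gene for p27KIP1, was at 48.8, 52.4 and 52.5 CPM in Pole4+/+ Trp53+/+ and at 74.5, 51.0 and 51.1 CPM in Pole4+/+ Trp53-/-. In Pole4-/- it was at 51.6, 44.6 and 53.6 CPM with Trp53 and at 51.5, 57.8 and 46.3 CPM without it. Apart from the library that stood apart, all 17 values lay between 42.3 and 57.8 CPM. The log2 fold changes were 0.20 (SE 0.13, adjusted p = 0.451) and 0.05 (SE 0.13, adjusted p = 0.780, edgeR), and the first was -0.04 (SE 0.10) without replicate 1. The mean of both was 0.13 (SE 0.09, adjusted p = 0.305). p27 is regulated largely through its protein, which these data do not measure.

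Beside these, Cdkn1a (p21) fell from 231.4 to 251.1 CPM in Pole4+/+ Trp53+/+ to between 5.66 and 12.0 CPM in Pole4+/+ Trp53-/-, and from 342.2 to 362.4 CPM to between 5.17 and 8.80 CPM in Pole4-/- cells. Its log2 fold changes were -4.59 (SE 0.24, adjusted p = 1.06e-08) and -5.72 (SE 0.26, adjusted p = 1.47e-09, edgeR). Cdkn1c (p57) had changes of 1.38 (SE 0.59, adjusted p = 0.22) and 0.46 (SE 0.59, adjusted p = 0.57). Without replicate 1 the first was 0.35 (SE 0.53, adjusted p = 0.721), with a mean of 44.0 CPM in the other 2 null libraries. Of the 5 genes, only Cdkn2a in Pole4+/+ cells had a fitted change above 1 log2 unit in either direction in these 2 comparisons, and that value rested on replicate 1.

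**Figure D4:**
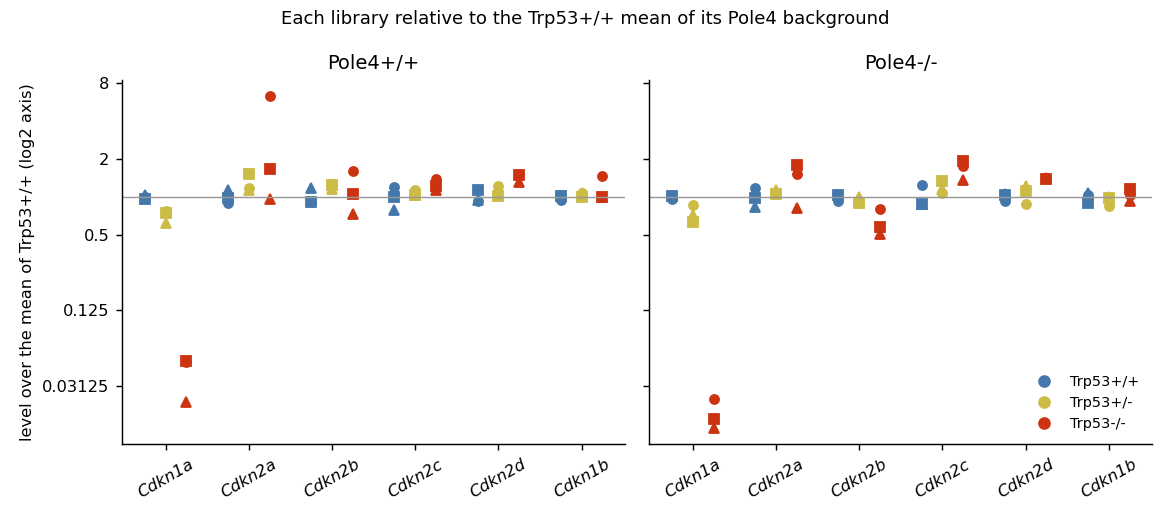
Each library's level divided by the mean of the 3 Trp53+/+ libraries of its Pole4 background, on a log2 axis, for p21 (Cdkn1a) and the 5 genes, with Trp53+/+ in blue, +/- in yellow and -/- in red and the replicates as circle, square and triangle. Cdkn1a in Trp53-/- libraries lies far below the line at 1, while the 5 genes lie closer to it, with Cdkn2a in 1 Pole4+/+ library the farthest above.

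Loss of 1 Trp53 allele gave no call among the 5 genes, in Pole4-/- (5.12% of all genes called) or in Pole4+/+ cells (0.904%), and no member had an unadjusted edgeR p under 0.05. In Pole4-/- cells 0 of the 5 genes and 40.3% of all genes had groups that did not overlap. Cdkn2a in Pole4+/+ Trp53+/- was at 26.1, 34.0 and 25.2 CPM, all above the 3 wild-type libraries (groups apart for 20.3% of all genes), with a log2 change of 0.36 (SE 0.50, adjusted p = 0.948). From heterozygous to null, none of the 5 was called in Pole4-/- (12.5% of all genes called) or Pole4+/+ cells (0.579%), although 3 and 2 of them had an unadjusted edgeR p under 0.05. In Pole4-/- cells these were Cdkn2b at -0.57 (SE 0.22, adjusted p = 0.0964), Cdkn2c at 0.50 (SE 0.17, adjusted p = 0.0684) and Cdkn2d at 0.40 (SE 0.13, adjusted p = 0.0588). Cdkn2b was called without Trp53-/- replicate 1, at -0.78 and an adjusted p of 0.047. These 3 had groups that did not overlap, as did 37.7% of all genes. Cdkn2b was at 36.5, 36.1 and 40.3 CPM in Pole4-/- Trp53+/-, Cdkn2c at 8.61, 10.8 and 9.36, and Cdkn2d at 6.92, 8.83 and 9.72. In Pole4+/+ cells they were Cdkn2a at 1.23 (SE 0.50, adjusted p = 0.468), which was 0.02 without replicate 1 of the null group, and Cdkn2d at 0.35 (SE 0.13, adjusted p = 0.406), the 1 gene of the 5 with groups apart, beside 8.99% of all genes. Without that replicate Cdkn2d was at 0.28 (SE 0.15), and Cdkn2b, at -0.08 with all libraries, was at -0.45 (SE 0.18). Of the 5, Cdkn2b alone was then under the unadjusted edgeR threshold, and none was called.

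Loss of Pole4 gave no call among the 5 genes at any Trp53 genotype; 3.98% of all genes were called in Trp53+/+ cells and 0.00637%, a single gene, in each of Trp53+/- and Trp53-/- cells. In Trp53+/+ cells, Cdkn2b was higher in all 3 Pole4-/- libraries than in any Pole4+/+ library (groups apart for 41.1% of all genes), at 0.47 (SE 0.22, adjusted p = 0.187, edgeR; exact permutation p = 0.1). Cdkn2a was placed likewise, at 0.62 (SE 0.50, adjusted p = 0.449), and Cdkn2c had a change of -0.34 (SE 0.18, adjusted p = 0.234). In Trp53+/- cells, where 13.1% of all genes had groups apart, they did not overlap for Cdkn2a, at 0.38 (SE 0.49), with 36.5, 35.9 and 38.4 CPM in Pole4-/-, nor for Cdkn1b, at -0.18 (SE 0.13); the adjusted p was 1.0 for both. In Trp53-/- cells the Cdkn2a change was -0.52 (SE 0.49, adjusted p = 0.695), and 0.67 (SE 0.29, adjusted p = 0.874) without Pole4+/+ Trp53-/- replicate 1. The Cdkn2b change there was -0.40 (SE 0.22, adjusted p = 0.512), and -0.05 (SE 0.18, adjusted p = 0.993) without that library. With all libraries none of the 5 genes had groups apart in Trp53-/- cells, beside 9.15% of all genes.

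Ordered by mean level over genotypes, Cdkn2a ran from 22.2 CPM in Pole4+/+ Trp53+/+ through 28.4, 33.8, 36.9 and 46.4 to 66.1 in Pole4+/+ Trp53-/-. In this order only the lowest pair of neighbours, Pole4+/+ Trp53+/+ and Pole4+/+ Trp53+/-, did not overlap. The top place rested on replicate 1, as the other 2 libraries of Pole4+/+ Trp53-/- had a mean of 29.1 CPM, between the 28.4 of Pole4+/+ Trp53+/- and the 33.8 that comes next. Cdkn2b ran from 25.4 CPM in Pole4-/- Trp53-/- to 40.7 in Pole4-/- Trp53+/+, and Cdkn2c from 8.03 in Pole4-/- Trp53+/+ to 13.5 in Pole4-/- Trp53-/-, and in both orders all neighbours overlapped. Cdkn2d ran from 7.93 to 11.5 CPM, and the step from 8.99 in Pole4+/+ Trp53+/- to 11.2 in Pole4-/- Trp53-/- was its only one without overlap. Cdkn1b ran from 47.2 to 58.9 CPM with all neighbours overlapping, and its top value, also in Pole4+/+ Trp53-/-, was 51.1 without replicate 1.

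Compared between genes as CPM per kb of exon, Cdkn2a and Cdkn2b had the highest mean levels over the 18 libraries, at 33.3 ± 23.3 and 24.2 ± 5.40 (SD, n = 18). Without the library that stood apart they were 28.2 ± 9.19 and 23.6 ± 4.95 (SD, n = 17). Over the 18, Cdkn1b followed at 11.4 ± 1.47 (11.2 ± 0.836 without that library), Cdkn2d at 5.93 ± 1.06 and Cdkn2c at 4.04 ± 0.87. Cdkn2b was above Cdkn2a in Pole4+/+ Trp53+/+, Pole4+/+ Trp53+/- and Pole4-/- Trp53+/+ cells when the union of exons was used as length, and below it in every genotype when the longest transcript was used. The other 3 kept their places under both lengths.

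The genes whose log2 CPM over the 18 libraries was most like each member were found by Pearson's r, as a description: the libraries share genotypes and depth. For Cdkn2d the highest were Six2 (r = 0.91), E2f2 (0.90) and Gsdme (0.89), and the lowest was Tnik (-0.93). For Cdkn2c they were Mkrn2 (0.92), Cmc2 (0.91) and Bend6 (0.90), with Prrg4 (-0.90) lowest. For Cdkn2b they were 5930403N24Rik (0.96), Narf (0.94) and Armcx1 (0.93), with Rbms1 (-0.93) lowest. For Cdkn2a they were Zc4h2 (0.83), Sord (0.83) and Trim2 (0.82), which fell to 0.59, 0.61 and 0.50 without the library that stood apart, and Dlgap4 (-0.83) was lowest. For Cdkn1b they were Helb (0.84), Mpzl1 (0.83) and Hspa12b (0.81), which were 0.56, 0.66 and 0.50 without it, with Pitpnm2 (-0.86, and -0.62 without it) lowest. Among the members, Cdkn2c and Cdkn2d had r = 0.67 (0.62 without that library), Cdkn2a and Cdkn1b 0.62 (0.07), Cdkn2a and Cdkn2b 0.41 (0.20), and Cdkn2b and Cdkn2c -0.42 (-0.62). Against Cdkn1a, r was -0.84 for Cdkn2d, -0.71 for Cdkn2c and 0.57 for Cdkn2b, and -0.83, -0.68 and 0.76 without that library.

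Around the locus, 38 other genes are annotated within 500 kb of Cdkn2a, of which 36 were in the table and 6 were tested; the untested ones had at most 15 counts in a library. Mtap, which encodes methylthioadenosine phosphorylase, was called higher with Trp53 loss in Pole4-/- cells, at 0.84 (SE 0.12, adjusted p = 7.02e-05), and was at 0.26 (SE 0.12, adjusted p = 0.24) in Pole4+/+ cells. It was thus called in the direction opposite to Cdkn2b in the same cells. With Klhl9 and Mllt3, which lie farther out, 8 neighbours were tested; Klhl9 (-0.35) and Mllt3 (-0.30) were called lower in Pole4-/- cells, and the weakly expressed Wincr1 (1.08), Gm12602 (-0.19), Gm13285 (-0.77), Gm26525 (-0.24) and Gm26867 (-0.39) were not called. That is 3 of 8, beside 42.6% of all genes.

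Of genes known to repress the Ink4/Arf locus, 6 of 15 Polycomb genes were called higher and 2 lower with Trp53 loss in Pole4-/- cells, among them Ezh2 (1.36), the histone H3K27 methyltransferase, Cbx2 (1.11) and Suz12 (0.92) higher and Ezh1 (-0.90) lower. Of 10 other repressors, 5 were higher and 1 lower, led by the replication licensing factor Cdc6 (2.03), Fosl1 (1.76), Hmga2 (1.0) and Tbx2 (0.90). Of 13 known activators, 6 were higher and 3 lower, with Myc (1.35) and Ets1 (0.95) higher and Foxo3 (-1.01) and Foxo1 (-0.62) lower. These 8, 6 and 9 calls stand beside 42.6% of all genes called in this comparison. In Pole4+/+ cells none of these 3 lists had a call with all libraries, but without Trp53-/- replicate 1, when 16.9% of all genes were called, 4 Polycomb genes, 1 other repressor and 3 activators were higher and 1 Polycomb gene and 1 activator were lower. Their medians in Pole4-/- cells were 0.23, 0.47 and 0.24, and in Pole4+/+ cells 0.18, 0.11 and 0.10.

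Among partners and targets of the inhibitors, 5 of 8 cyclin D, cyclin E and kinase genes were called higher and 2 lower in Pole4-/- cells, where 42.6% of all genes were called. Higher were Ccne2 (1.43), Cdk2 (0.90), Ccne1 (0.88), Cdk6 (0.83) and Cdk4 (0.49), lower were Ccnd2 (-1.0) and Ccnd3 (-0.24), and Ccnd1 was at 0.02. In Pole4+/+ cells only Ccnd2 was called (-0.78), while Cdk2 (0.43), Cdk4 (0.26), Ccne2 (0.28), Cdk6 (0.20), Ccne1 (0.11), Ccnd3 (0.05) and Ccnd1 (-0.13) were not. Of 13 pocket protein and E2F genes, 8 were higher and 2 lower in Pole4-/- cells, led by E2f7 (2.02), Rb1 (-1.45), E2f8 (1.43) and Rbl1 (0.98), and Rb1 (-0.86) was the 1 call in Pole4+/+ cells. Without Pole4+/+ Trp53-/- replicate 1, 2 of the cyclin and kinase genes and 6 of the pocket protein and E2F genes were called higher in Pole4+/+ cells, where 16.9% of all genes were then called, against 4.60% with all libraries. Of 13 genes of p27 turnover and transcription, 4 were higher and 3 lower in Pole4-/- cells, which is near the share of all genes. Cks1b (1.3) and Skp2 (1.27), parts of the ubiquitin ligase that targets p27 in the nucleus, were higher, as were the scaffold Cul1 (0.45) of that ligase and Cops5 (0.24), while its parts Skp1a (0.20) and Rbx1 (0.22) were not called. Lower were Foxo3, Foxo1 and Rnf123 (-0.57), part of another ubiquitin ligase of p27. Skp2 (0.52) was also called in Pole4+/+ cells, where the number called higher was 2 without Trp53-/- replicate 1 and 0 without any of the other 5 libraries.

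Of 9 genes of the ARF-MDM2-p53 loop, Ccng1 (-3.37 in Pole4-/-, -3.23 in Pole4+/+), Trp53 (-2.61, -3.08) and Mdm2 (-1.72, -1.62) were called lower in both backgrounds, and Npm1 (0.85), which holds ARF in the nucleolus, and Usp7 (0.69) were called higher in Pole4-/- cells, so that 5 of the 9 were called there beside 42.6% of all genes. Trp53 is the deleted gene, so its call was set by the genotype, and it is counted among the 5. All 15 proliferation genes were called higher in Pole4-/- cells, led by Mcm5 (1.97), Ccna2 (1.89), Bub1 (1.81) and Ccnb1 (1.79), with a median of 1.68. In Pole4+/+ cells 3 of them were, Ccna2 (0.76), Aurkb (0.63) and Top2a (0.58), with a median of 0.58. That count rested on single libraries: it was 15 without Trp53-/- replicate 1, when 16.9% of all genes were called, 1 without Trp53+/+ replicate 1 and 0 without any of the other 4, when 2.01% to 4.02% were. The difference of the change between backgrounds was 0.84 to 1.22 over the 15 genes and passed the edgeR interaction test for 1 of them, Top2a, and for 0 to 15 of them with each library left out in turn (6 without Pole4+/+ Trp53-/- replicate 1, beside 1.07% of all genes, and 15 without replicate 3, beside 20.1%). The list of 13 senescence genes held 11 that encode secreted proteins, together with Hmgb2 and Lmnb1, nuclear proteins known to decline in senescent cells. In Pole4-/- cells Hmgb2 (1.81) and Lmnb1 (1.67) were called higher, and of the 11 secreted ones Ccl2 (1.41) was called higher and Mmp13 (-2.39), Igfbp3 (-1.43) and Igfbp7 (-0.61) lower. That is 6 of 13 beside 42.6% of all genes. In Pole4+/+ cells with all libraries, Igfbp7 (-0.70) was the 1 call, lower. Without Trp53-/- replicate 1, 3 genes of this list were called higher there, and without replicate 3, 2 were called lower.

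**Figure D5:**
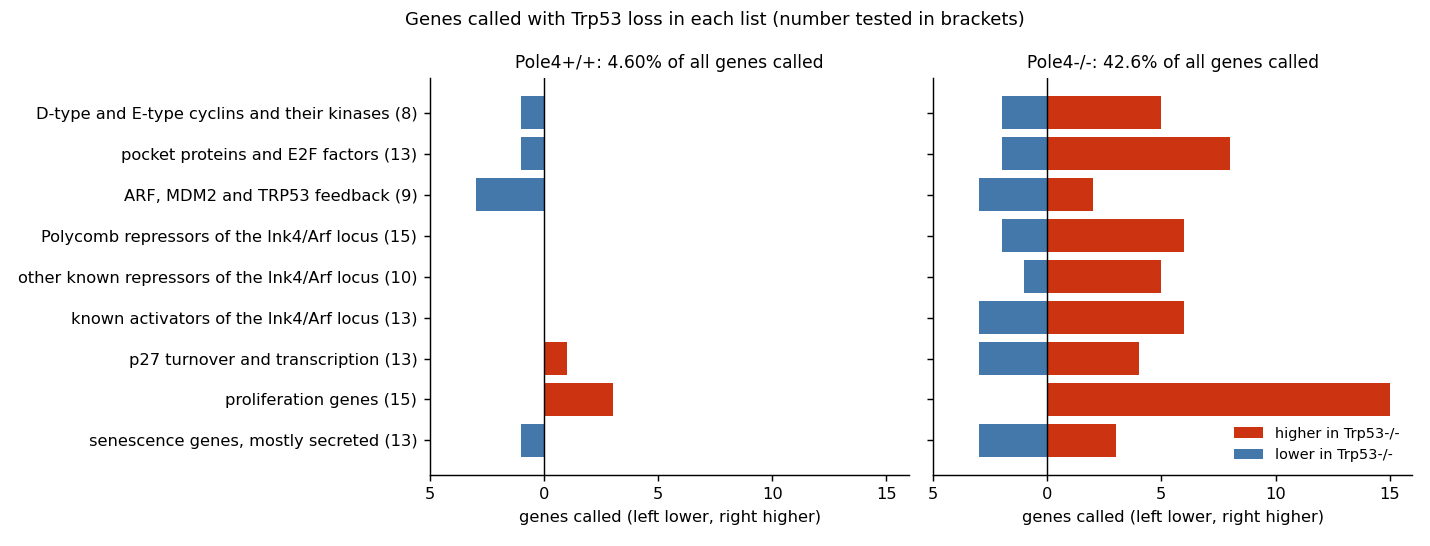
Number of genes of each list called higher (red, right) or lower (blue, left) in Trp53-/- than in Trp53+/+ cells by edgeR at an adjusted p under 0.05, in Pole4+/+ and Pole4-/- MEFs, with the number tested in brackets. All 15 proliferation genes were called higher in Pole4-/- cells and 3 of them in Pole4+/+ cells, beside 42.6% and 4.60% of all genes; without Pole4+/+ Trp53-/- replicate 1 the second count was also 15, beside 16.9%.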

How the data were processed

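RNA-seq libraries were made by the authors with an unstranded cDNA kit, and reads were trimmed (Trim Galore), aligned with STAR 2.5.2 to GRCm38 with Ensembl annotation and counted per gene with RSEM 1.3.0, per the submitters' processing notes and the study's methods. The deposited values are expected counts of 51912 genes in 18 libraries; 6.14% are not whole and all were rounded. Genes were matched to GENCODE vM21 (GRCm38); 15710 passed filterByExpr. Tests used edgeR 4.0.16 in R 4.3.3 (TMM factors, a model with 1 mean for each genotype fitted to the 18 libraries together, robust quasi-likelihood F-test, 12 residual degrees of freedom), with Benjamini-Hochberg adjustment over all genes tested; the SE is the log2 fold change divided by the square root of F. Levels are TMM-scaled CPM. Exact two-sided permutation tests used log2 CPM with a prior count of 2. The script was tested on simulated data. DESeq2 1.42.0 and limma 3.58.1 were among the alternatives. The 5 genes and all lists were chosen with earlier results of these data known. Of each list, up to 4 called genes with the largest changes are named, and all members of the cyclin, CIP/KIP and neighbour lists; Usp7, Igfbp5, further called or uncalled genes of the p27 and senescence lists, and the single marker genes were named after their values were seen. Alternatives were library totals, upper-quartile factors, a fit without ribosomal RNA genes, no filter and a filter at a mean of 50 counts. Further ones were DESeq2, voom, only the libraries compared, a replicate block and the log2 Xist level as a covariate. A stricter threshold and each library left out were also tried. Library totals were 9535971 to 35319918 counts.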

Additional observations from a re-analysis of the deposited data

Results flagged for a closer look

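Of the genes on the lists, 1 had a Trp53-loss effect that differed between the Pole4 backgrounds. Top2a, a topoisomerase of dividing cells, changed by 1.096 log2 units more in Pole4-/- than in Pole4+/+ cells (edgeR interaction test), just inside the threshold; with each library left out in turn, 0 to 15 of the 15 proliferation genes passed this test. None of the 5 inhibitor genes passed this test with all libraries. Cdkn2b, at -0.87 (adjusted p = 0.0952), passed it without Pole4+/+ Trp53-/- replicate 3 (adjusted p = 0.0166). Single libraries within the groups of 3 were not tested as outliers.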

How the results depend on the processing

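With library totals in place of TMM, which also lowered the share of all genes called to 23.7% and 1.22%, the Pole4-/- changes with Trp53 loss of Cdkn2b (-0.70), Cdkn2c (0.66) and Cdkn2d (0.47) and the Pole4+/+ change of Cdkn2d (0.62) were no longer called, so that 0 members were called in either background. The Cdkn2d change in Pole4+/+ cells was also lost with no filter (0.52) and with only the libraries compared (0.53), and at an adjusted p under 0.01, with 0 members called in each. Cdkn2b in Pole4-/- cells was -0.63 and not called with no filter. DESeq2 called Cdkn2a in Pole4+/+ cells (1.58), making 2 members beside 8.87% of all genes; over all alternatives other than left-out libraries this change was 0.76 (voom) to 1.74 (library totals). From heterozygous to null in Pole4-/- cells, 1 member was called with library totals (7.97% of all genes called), only the libraries compared (16.6%) or the replicate block (14.3%), 2 by DESeq2 (21.3%) and 3 by voom (25.7%). Over the alternatives the changes there ran from 0.17 to 0.61 for Cdkn2c, from 0.065 to 0.52 for Cdkn2d and from -0.90 to -0.49 for Cdkn2b. For Pole4 loss in Trp53+/+ cells, 2 were called with only the libraries compared (24.1% of all genes) and 3 by voom (33.3%). The mean Cdkn2a change was also lost with library totals (1.06), no filter (1.04) and only the libraries compared (1.02). Signs turned for uncalled values: Cdkn1b in Pole4-/- cells (-0.038, upper quartile), the differences between backgrounds of Cdkn2d (0.025, no filter) and Cdkn1b (0.038, voom), and Cdkn2a with Pole4 loss in Trp53-/- cells (0.45, voom).

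With each library left out in turn, the log2 change with Trp53 loss in Pole4-/- cells ran from -0.89 to -0.54 for Cdkn2b, from -0.027 to 0.13 for Cdkn1b and from 0.22 to 0.72 for Cdkn2a. In Pole4+/+ cells it ran from 0.37 to 2.0 for Cdkn2a, from -0.18 to 0.41 for Cdkn2b, from 0.16 to 0.47 for Cdkn2c, from 0.46 to 0.63 for Cdkn2d and from -0.035 to 0.29 for Cdkn1b, with 0 to 2 members called. From heterozygous to null in Pole4-/- cells and for the difference between backgrounds, 0 to 1 members were called. The differences ran from -1.57 to 0.053 for Cdkn2a, -0.12 to 0.026 for Cdkn2d, -0.25 to 0.071 for Cdkn1b and 0.27 to 0.65 for Cdkn2c. With Pole4 loss in Trp53-/- cells the changes of Cdkn2a ran from -0.95 to 0.67 and of Cdkn2b from -0.64 to -0.05, in Trp53+/+ cells that of Cdkn2c from -0.57 to -0.18, and in Trp53+/- cells that of Cdkn1b from -0.22 to -0.09. From wild type to heterozygous in Pole4+/+ cells Cdkn2a ran from 0.21 to 0.46. The cause of these changes was not tested.

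The labels do not say that replicate numbers pair the libraries. Deviations of same-numbered libraries had r above 0.1 in 22 of 45 pairs (median 0.098, against -0.06 for other pairs), and 13 of 18 libraries correlated best with their own number. All 3 pairs were above 0.1 in 2 of 9 comparisons, from Trp53 heterozygous to null in Pole4+/+ cells (0.144 to 0.586) and Pole4 loss in Trp53+/- cells (0.261 to 0.497), where the block left 0 members called. With the replicate block, 1 member (Cdkn2c) was called from heterozygous to null in Pole4-/- cells, and the mean Cdkn2a change with Trp53 loss, 0.91, missed the threshold, leaving 2 of 5. The block changed no other call of a member.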
